A study of Rattus norvegicus with 10 samples.

Results

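The CC chemokine genes Ccl2, Ccl3, Ccl4, Ccl5 and Ccl20 and the chemokine receptor gene Cxcr4 were followed in cultured rat microglia, the macrophages of the brain, with and without interferon gamma (IFN-gamma). These 6 genes, of 4736 that the array annotation names, were taken by name. Every probe set whose single gene symbol was one of them was kept, which gave 9 of 8740 probe sets, and none was removed for a low signal. Ccl2 had 2 probe sets, Cxcr4 had 3, and Ccl3, Ccl4, Ccl5 and Ccl20 had 1 each. The Entrez identifiers of all 9 matched the same symbols in RefSeq's rat genes (assembly GRCr8). Cxcr4 binds the CXC chemokine Cxcl12, so no CC receptor is among the 6, and those on the array are described with the wider chemokine system.

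The cells were microglia from neonatal rat brains, with 1 brain per flask, grown in 15% fetal calf serum and plated on day 15 at 100000 cells per dish. No strain, sex or genetic change is given in the labels. The 5 control cultures (numbered 1, 2, 3, 5 and 6) received fresh medium only, and the 3 IFN-gamma cultures (1, 2 and 3) received fresh medium with 100 U/ml IFN-gamma for 16 hours. IFN-gamma culture 1 was hybridised on 3 technical arrays (1a, 1b and 1c), which were averaged so that the culture was the replicate.

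Chemokines are small secreted proteins that guide leukocytes by binding receptors coupled to G proteins. In the CC class the first cysteines of the mature protein are adjacent. Activated microglia are a known source of Ccl2, Ccl3 and Ccl4 in inflamed brain, where these draw in monocytes and lymphocytes. The transcription factor NF-kB drives many of these genes, whereas IFN-gamma is best known for inducing CXC chemokines such as Cxcl10.

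Deposited signals were not on a common scale, with array medians from 7.4 (control 3, the dimmest array) to 23.7, so levels are given as quantile-normalised log2(signal + 16). Before normalisation a signal of 0 becomes 4 and one of 16 becomes 5, so a level under 5 was taken as the floor. Differences on this scale understate the change of dim probe sets. Of 9 measured microglial and macrophage markers 5 were above the floor in all 8 cultures, with control means of 5.6 (Ptprc), 7.81 (Aif1), 8.63 (Cd14), 8.77 (C1qb) and 10.8 (Lyz2). Csf1r was at the floor in 6 cultures, and Itgam (control mean 4.98), Cx3cr1 (5.19) and Fcgr2b (5.33) were in 3 each. The mean level of these 9 was 6.58 to 7.07 in the controls and 7.18 to 7.40 with IFN-gamma. Its exact permutation p was 0.0357 (two-sided, 0.161 after Benjamini-Hochberg adjustment over 6 marker lists). By the test described below only Lyz2 (log2 fold change 1.61) and C1qb (1.14) among them passed, both higher. Aif1, Itgam, Csf1r and Ptprc were higher without passing. Cd14 (-0.34), Cx3cr1 (-0.29) and Fcgr2b (-0.28) were lower without passing. The 7 astrocyte markers were at 5.47 to 5.89 and 5.27 to 5.45 (exact permutation p = 0.0536, adjusted 0.161). Of these Gja1 was at the floor in all cultures. Glul fell (log2 fold change -1.66), and the others lay between -0.18 and 0.13 without passing. The lists of oligodendrocytes (4.83 to 5.75 and 4.92 to 5.28), neurons (4.78 to 5.21 and 4.76 to 5.09), T and NK cells (4.73 to 5.01 and 4.70 to 4.83, with Cd3d and Cd2 at the floor in all cultures) and fibroblasts and endothelium (5.35 to 5.82 and 5.3 to 5.6) overlapped between the groups. The part of such shifts in the results that follow was not tested.

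Of the 9 probe sets, both of Ccl2 fell with IFN-gamma and the other 7 did not pass. The test was limma's moderated test, called at 0.05 after adjusting by Benjamini-Hochberg over all 8740 probe sets. Its p-values measure the spread between these cultures. In the lower direction 2 of 9 passed, against 0.606% of all probe sets, and in the higher direction 0 of 9 passed, against 0.927%. At an unadjusted p under 0.05 the count was also 2 lower and 0 higher, against 4.76% and 5.74% of all probe sets. All 3 IFN-gamma cultures were below every control in 2 of 9, against 3.4% of all probe sets, and above every control in 0 of 9, against 4.28%. In each of the lower counts the 2 were the probe sets of Ccl2, the same gene. The genes were chosen with its decrease known, so these counts are no blind comparison with the shares of all probe sets. The median log2 fold change of the 9 was -0.19, beside -0.02 over all probe sets. Ccl5 was at the floor in all 8 cultures, and 3 other probe sets (Ccl4 and 2 of Cxcr4) were at the floor in some of them.

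**Figure D1:**
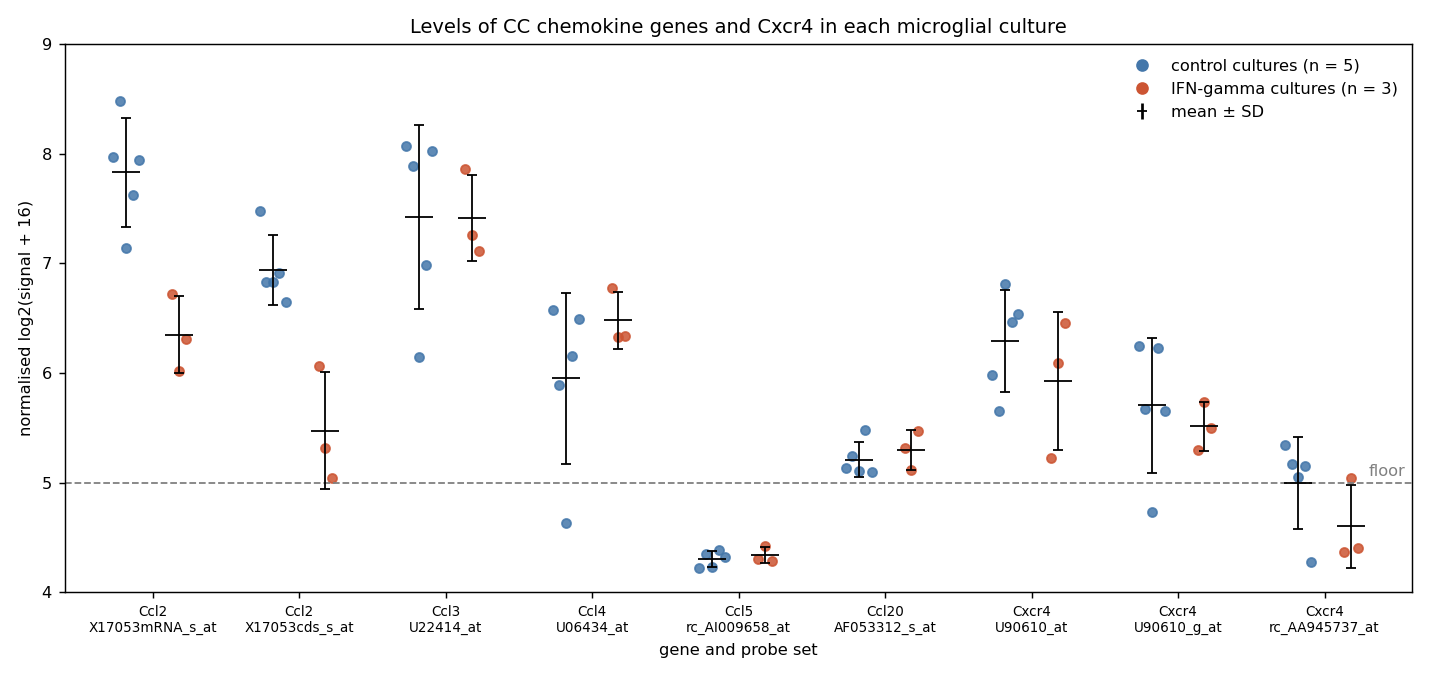
Normalised log2(signal + 16) of each of the 9 probe sets in the 5 control cultures (blue) and 3 IFN-gamma cultures (orange), with the mean and SD in black and the floor of 5 as a dashed line. The groups separate for both Ccl2 probe sets, Ccl5 lies under the floor throughout, and the other 6 overlap.

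Ccl2, also called MCP-1, is the chief attractant of monocytes that carry the receptor Ccr2. Both of its probe sets are named for the same GenBank entry, 1 for the mRNA and 1 for the coding sequence. Both carry the suffix s, which was counted here as reduced specificity. On the mRNA probe set (X17053mRNA_s_at) controls 1, 2, 3, 5 and 6 were at 7.97, 8.48, 7.14, 7.62 and 7.95, and IFN-gamma cultures 1, 2 and 3 at 6.72, 6.02 and 6.31. The highest IFN-gamma culture thus lay 0.42 under the lowest control. The mean fell from 7.83 ± 0.49 (SD, n = 5) to 6.35 ± 0.35 (SD, n = 3), which is 2.79-fold lower (log2 fold change -1.48, 95% interval -2.15 to -0.81, adjusted p = 0.0473). On the coding sequence probe set (X17053cds_s_at) the controls were at 7.48, 6.83, 6.83, 6.91 and 6.64, and the IFN-gamma cultures at 6.07, 5.32 and 5.04. No culture overlapped here either, and the gap was 0.58. The mean fell from 6.94 ± 0.32 (SD, n = 5) to 5.47 ± 0.53 (SD, n = 3), a 2.76-fold decrease (log2 fold change -1.46, 95% interval -2.08 to -0.85, adjusted p = 0.0335). In RNA from whole dishes, fewer cells that make Ccl2 and less Ccl2 RNA per cell cannot be told apart.

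The decrease in Ccl2 was just past the threshold and its call was not stable. The log2 fold change was negative on both probe sets in 20 of 20 alternative settings that kept them. Both passed in 3, 1 of the pair passed in 7 and neither in 10. A further setting, without probe sets of reduced specificity, removed both. The adjusted p ran from 0.0097 to 0.764 for the mRNA probe set and from 0.0111 to 0.618 for the coding sequence probe set. Without scaling between arrays neither passed (adjusted p = 0.764 and 0.618), and with array medians subtracted neither did (0.202 and 0.103). Under the first of these settings the groups overlapped on both probe sets, and under the other on the mRNA probe set. The mRNA probe set lost its call without control 1 (adjusted p = 0.0812), control 2 (0.0708), control 5 (0.0916), control 6 (0.114), IFN-gamma culture 1 (0.0981), culture 2 (0.243) or culture 3 (0.205). The coding sequence probe set lost it without control 2 (adjusted p = 0.0703), control 3 (0.0557), control 5 (0.0805), control 6 (0.0563), IFN-gamma culture 2 (0.192) or culture 3 (0.177). Over all these omissions its log2 fold change stayed between -1.76 and -1.24, and that of the mRNA probe set between -1.67 and -1.32.

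As deposited, the Ccl2 mRNA probe set had signals of 429, 198, 44.8, 182 and 295 on control arrays 1, 2, 3, 5 and 6. The IFN-gamma arrays 1a, 1b, 1c, 2 and 3 read 44.5, 186, 78.7, 54.8 and 94.3. Control 3 stood beside the lowest IFN-gamma array on this scale, and its array median of 7.4 was also the lowest of all. The coding sequence probe set read 267, 61.3, 37.2, 112 and 102 on the control arrays, and 45.5, 99.7, 26.9, 25.5 and 22.7 on the IFN-gamma arrays. On both probe sets the groups overlapped on this scale. The lowest control signal was on the dimmest array (control 3), and the highest IFN-gamma signal on the brightest (1b, with a median of 23.7). The part of array brightness in this overlap was not tested. All 20 Ccl2 signals were above 16, and after normalisation no Ccl2 level was at the floor. The coding sequence probe set came close to it in IFN-gamma cultures 2 and 3, with levels of 5.32 and 5.04. The size of the change depended on the added 16. With 4 or 64 added in its place the log2 fold change was -1.80 or -0.89 for the coding sequence probe set. For the mRNA probe set it was -1.64 or -1.10.

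**Figure D2:**
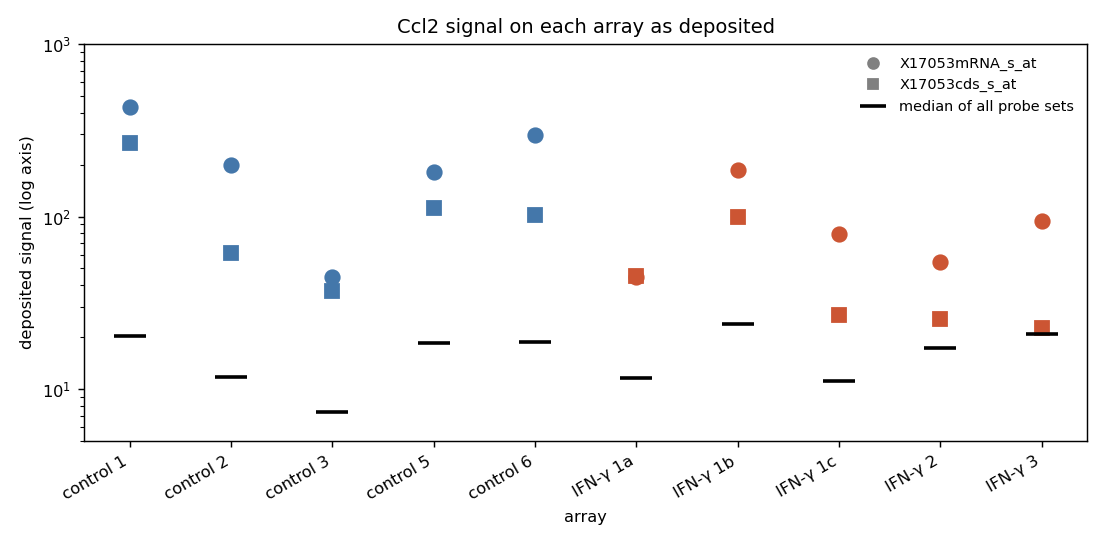
Deposited Ccl2 signal (log axis) on each of the 10 arrays for the mRNA (circles) and coding sequence (squares) probe sets, controls in blue and IFN-gamma in orange, with the median of all probe sets on that array as a black bar. Control 3 has a Ccl2 signal of 44.8 on an array with a median of 7.4, and IFN-gamma array 1b has 186 on an array with a median of 23.7.

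The 3 technical arrays of IFN-gamma culture 1 show how far 1 culture varied between arrays. For the Ccl2 mRNA probe set they read 6.25, 6.8 and 7.1 after normalisation, a spread of 0.84 between arrays 1a and 1c. Array 1c alone lay close to the lowest control at 7.14. With 1c alone for culture 1 the adjusted p was 0.12, with 1b alone 0.0561 and with 1a alone 0.0229. The coding sequence probe set read 6.29, 6.2 and 5.71, in the opposite order, and gave adjusted p values of 0.0732, 0.0516 and 0.0115 with 1a, 1b and 1c alone. Over the 8 cultures the 2 probe sets correlated with r = 0.85, and with r = 0.31 once the group means were removed. Both correlations come from the same arrays and share their scaling.

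Ccl3 and Ccl4, also called MIP-1 alpha and beta, are attractants of monocytes and T cells, and Ccl3 acts in part through Ccr1. In the GRCr8 gene table no gene lies between them, and 3 lie between Ccl5 and Ccl3 on the same chromosome. Ccl3 was at 8.07, 7.89, 6.15, 6.99 and 8.02 in controls 1, 2, 3, 5 and 6, and at 7.86, 7.26 and 7.12 in IFN-gamma cultures 1, 2 and 3. All 3 IFN-gamma values lay inside the range of the controls. The means were 7.42 ± 0.84 (SD, n = 5) and 7.41 ± 0.39 (SD, n = 3), a log2 fold change of -0.01 (adjusted p = 0.998). Its 95% interval, from -1.01 to 0.99, still holds changes of up to about 2-fold either way, and the sign turned in 12 of 21 other settings.

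Ccl4 was at 6.57, 5.90, 4.64, 6.16 and 6.49 in the controls and at 6.78, 6.33 and 6.33 with IFN-gamma. IFN-gamma culture 1 was above every control and the other two were within their range. The means were 5.95 ± 0.78 (SD, n = 5) and 6.48 ± 0.26 (SD, n = 3), and the log2 fold change of 0.53 did not pass (95% interval -0.39 to 1.45, adjusted p = 0.782). It was positive in all 21 other settings, between 0.20 and 0.78, and passed in none.

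Untreated cultures differed among themselves in both genes. The SD of Ccl3 over the 5 controls was larger than that of 97.6% of all probe sets, and that of Ccl4 larger than 95.9%. Control 3 was the lowest for each, and Ccl4 was at the floor there. Without control 3 the SD of Ccl3 went from 0.84 to 0.51, above 77.1% of probe sets, and that of Ccl4 from 0.78 to 0.31, above 43%. Ccl3 and Ccl4 levels correlated with r = 0.79 over the 8 cultures and with r = 0.35 over the 7 without control 3, so their common pattern rests largely on that culture. The dimness of the array of control 3 moves with its low Ccl3 and Ccl4, and its part in them was not tested. Over all 5 controls the SD of Ccl2 was larger than that of 67.6% (mRNA) and 34.5% (coding sequence) of probe sets. Without control 3 these shares were 51.0% and 51.9%, above that of Ccl4. The Ccl2 mRNA probe set was also lowest in control 3 (7.14), and over the controls it correlated with Ccl3 at r = 0.87.

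**Figure D3:**
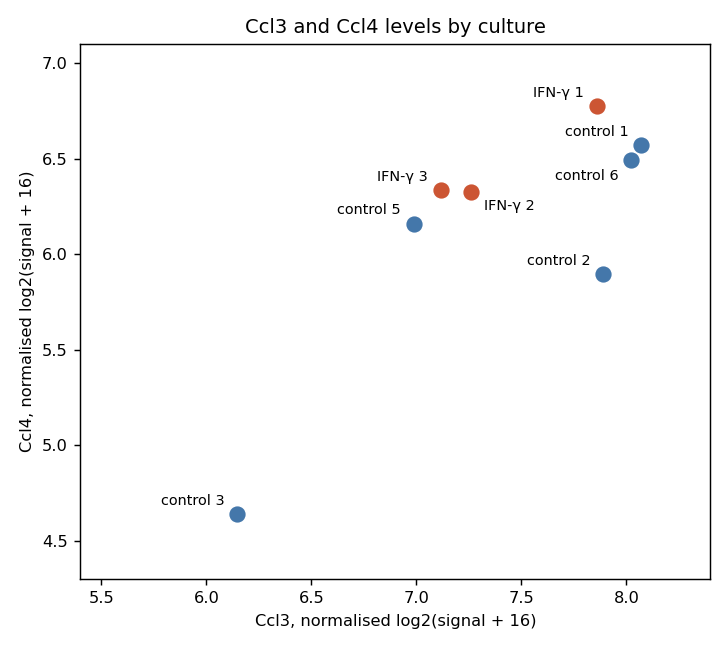
Ccl3 (horizontal) against Ccl4 (vertical), both as normalised log2(signal + 16), in the 5 control cultures (blue) and 3 IFN-gamma cultures (orange). Control 3 lies alone at 6.15 and 4.64, and the other 7 cultures lie between 6.99 and 8.07 for Ccl3 and between 5.90 and 6.78 for Ccl4.

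Ccl5, or RANTES, attracts T cells and monocytes and is made by many cells late in activation. It lay at the floor on every array, with deposited signals of 3.1, 3.3, 1.7, 5.9 and 4.8 in the controls and of 3.7, 3.9, 2.8, 5.5 and 4.4 on IFN-gamma arrays 1a, 1b, 1c, 2 and 3. The groups overlapped throughout. The normalised levels were 4.3 ± 0.07 (SD, n = 5) and 4.34 ± 0.07 (SD, n = 3), with a log2 fold change of 0.03 (95% interval -0.28 to 0.35, adjusted p = 0.978). At this signal a fall could not have been seen, and a rise that stayed under the floor would have been compressed by the added 16.

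Ccl20, the ligand of Ccr6 on dendritic cells and T cells, was just above the floor. Its levels were 5.13, 5.24, 5.10, 5.48 and 5.10 in the controls and 5.31, 5.11 and 5.47 with IFN-gamma, which overlapped fully. The log2 fold change was 0.09 (95% interval -0.29 to 0.46, adjusted p = 0.943). Only control 3 had a deposited signal under 16, at 8.7, and the other 9 arrays read between 16.1 and 39.3.

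**Figure D4:**
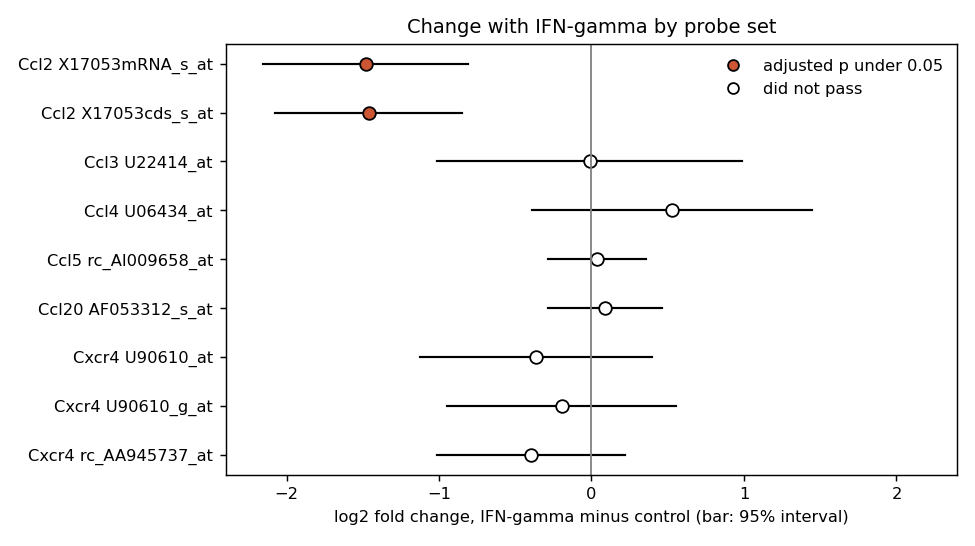
Log2 fold change of each of the 9 probe sets, IFN-gamma minus control, with its 95% interval from the limma fit; filled points passed an adjusted p of 0.05. The 2 Ccl2 probe sets lie at -1.48 and -1.46, and the intervals of the other 7 include 0.

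Cxcr4, the receptor for Cxcl12, guides the positioning of leukocytes and of migrating cells in the brain. Its 3 probe sets had log2 fold changes of -0.36, -0.19 and -0.40, and none passed. On U90610_at the controls 1, 2, 3, 5 and 6 were at 5.98, 5.65, 6.81, 6.47 and 6.54, and the IFN-gamma cultures at 5.23, 6.09 and 6.46 (95% interval of the log2 fold change -1.12 to 0.40, adjusted p = 0.841). Culture 1 with IFN-gamma was the lowest of the 8 and the other two lay among the controls. On U90610_g_at the controls were at 6.25, 5.67, 4.73, 6.23 and 5.65, and the IFN-gamma cultures at 5.3, 5.74 and 5.5 (95% interval -0.94 to 0.56, adjusted p = 0.936). Control 3 was the lowest on this probe set but the highest on U90610_at.

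On the remaining Cxcr4 probe set, rc_AA945737_at, the controls were at 5.35, 5.17, 5.05, 5.15 and 4.27, and the IFN-gamma cultures at 4.37, 5.04 and 4.41 (95% interval -1.01 to 0.22, adjusted p = 0.734). Control 6 and IFN-gamma cultures 1 and 3 were at the floor, and 7 of 10 arrays had a deposited signal under 16. The probe sets did not rank the cultures alike: over the 8 cultures r was -0.14 between U90610_at and U90610_g_at, 0.04 between U90610_at and rc_AA945737_at, and 0.37 between U90610_g_at and rc_AA945737_at. The technical arrays of IFN-gamma culture 1 spanned 1.08 on U90610_at and 1.2 on U90610_g_at, more than the difference between the group means on either. For Ccl4 they spanned 0.17, for Ccl3 0.70 and for Ccl20 0.35.

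The remaining chemokine system was read from fixed lists, with each gene by its brightest probe set. Only 1 of 16 other CC chemokines was measured, the eosinophil attractant Ccl11, with a log2 fold change of -0.25 (adjusted p = 0.853). It was at the floor in 7 of the 8 cultures. Of 9 measured CXC, C and CX3C chemokines 1 rose and 2 fell, beside 0.927% (higher) and 0.606% (lower) of all probe sets. The T cell attractant Cxcl10 rose (log2 fold change 2.10, adjusted p = 0.00176). Pf4, platelet factor 4 (-3.61, adjusted p = 8.06e-06), and the B cell attractant Cxcl13 (-2.05, adjusted p = 0.0017) fell. The list median was -0.18, and 2 of the 9 genes were at the floor in all cultures. The size of the changes in Cxcl10, Pf4 and Cxcl13 depended on the added 16. For Cxcl13 the mean with IFN-gamma was 4.86, with 2 cultures at the floor. With pseudocounts of 4 and 64 the log2 fold change was -2.71 and -1.14 for Cxcl13, -3.87 and -2.95 for Pf4, and 2.46 and 1.41 for Cxcl10. Without scaling between arrays Pf4 (adjusted p = 0.0677) and Cxcl13 (0.174) kept their direction and did not pass. Cxcl6, a neutrophil attractant, was at -0.82 and did not pass (adjusted p = 0.166, but 0.0216 with array 1a alone for culture 1), nor did Cxcl14 (-0.32, adjusted p = 0.846) or Cx3cl1 (-0.18, adjusted p = 0.859).

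Of 9 other chemokine receptors 0 passed in either direction by limma, and 0 did at an unadjusted p under 0.05, against 10.5% of all probe sets in either direction. Their log2 fold changes ran from -0.29 to 0.08 with a median of -0.04, and 3 were at the floor in all cultures. Among them Ccr1, which binds Ccl3 and Ccl5, was at 5.28 ± 0.31 (SD, n = 5) and 5.11 ± 0.10 (SD, n = 3; log2 fold change -0.17, adjusted p = 0.884). The microglial fractalkine receptor gene Cx3cr1 was at -0.29 (adjusted p = 0.87), and Cxcr5, the receptor for Cxcl13, -0.10 (adjusted p = 0.944). Cxcr5 was at the floor in all 8 cultures, so its value says little about a change. Ccr2, the receptor for Ccl2, was at 4.37 and 4.36, and it too was at the floor in all 8 cultures.

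**Figure D5:**
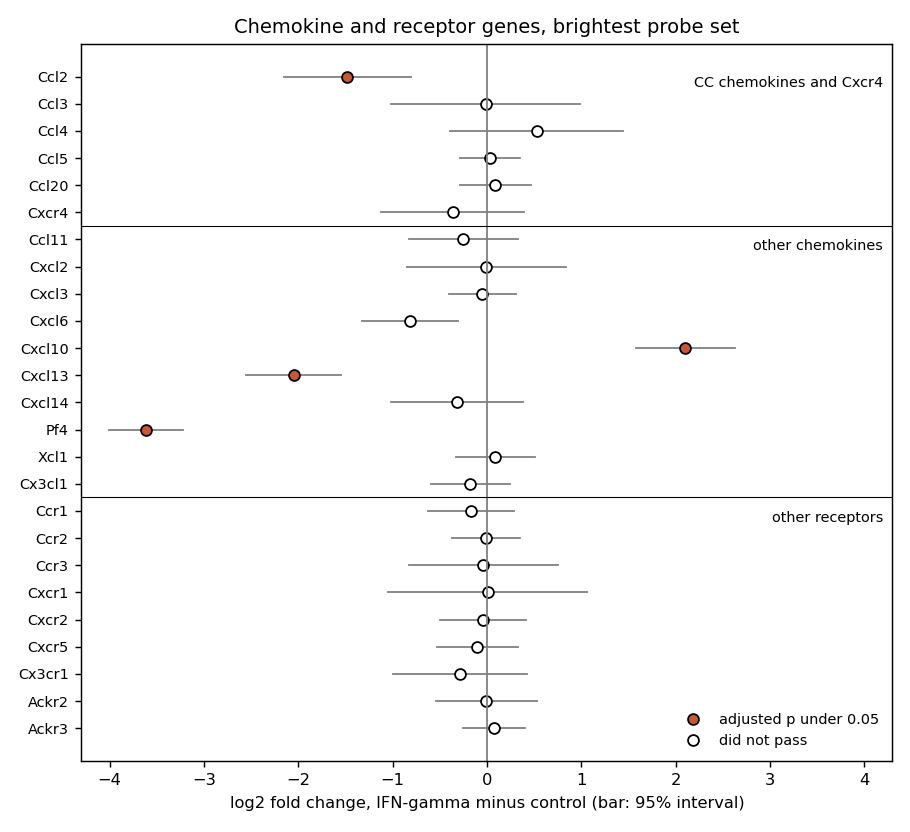
Log2 fold change, IFN-gamma minus control, with 95% interval for the brightest probe set of the 6 genes followed here (top), 10 other chemokines (middle) and 9 other receptors (bottom). Filled points passed an adjusted p of 0.05: Ccl2, Pf4 and Cxcl13 lie to the left of 0 and Cxcl10 to the right, and every receptor interval includes 0.

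Among 23 measured genes of signalling downstream of chemokine receptors 1 fell and 0 rose, with a median log2 fold change of 0.05, and 4 had an unadjusted p under 0.05 (10.5% of all probe sets did). It was Rgs1, which shuts off G protein signals from chemokine receptors and fell from 5.23 ± 0.33 (SD, n = 5) to 4.16 ± 0.13 (SD, n = 3; log2 fold change -1.07, adjusted p = 0.0459). All 3 IFN-gamma cultures were under the floor, so the size is set by the added constant: it was -2.10 with a pseudocount of 4 and -0.39 with 64. It did not pass in 15 of 20 alternatives, which include leaving out control 1 (adjusted p = 0.0791), control 2 (0.102), control 3 (0.0649), control 5 (0.0961), or IFN-gamma culture 1 (0.129), 2 (0.224) or 3 (0.213). With 1 culture left out its log2 fold change stayed between -1.19 and -0.98. The adhesion kinase gene Ptk2 was at -0.81 (adjusted p = 0.185), the kinase gene Prkcd at 0.64 (adjusted p = 0.201) and the small GTPase gene Rhoa at 0.62 (adjusted p = 0.519). Of 12 measured NF-kB and AP-1 regulators 0 passed by limma and 2 did at an unadjusted p under 0.05, a share to be read against the same 10.5%, with a median of 0.11. These were Cebpb, a transcription factor of macrophage activation, at 1.09 (adjusted p = 0.0501), and Nfkb1, the p50 subunit gene, at 1.05 (adjusted p = 0.178). Cebpb passed in 9 of 21 alternatives, which include leaving out control 1 (adjusted p = 0.0488) or control 3 (0.042). In both genes the 3 IFN-gamma cultures lay above the 5 controls, as they did in 4.28% of all probe sets. The gap was 0.57 for Cebpb and only 0.03 for Nfkb1. Jun was at -0.49 (adjusted p = 0.583).

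The genes whose levels over the 8 cultures were most like those of each member were taken from 3378 probe sets with 1 symbol and a mean of at least 5, by Pearson's r. For the Ccl2 mRNA probe set they were Slc13a3 (r = 0.970), the osteopontin gene Spp1 (0.969), the galectin-3 gene Lgals3 (0.965), the lipoprotein lipase gene Lpl (0.957) and the embigin gene Emb (0.953). Their log2 fold changes were -1.75, -2.16, -0.70, -2.10 and -1.26 in the same order. Since r was taken over both groups, a lower level with IFN-gamma is part of how these 5 were chosen. For Ccl3 they were Pet100 (0.982), Ackr2 (0.977), Slc3a2 (0.947), Cnpy2 (0.945) and Mfsd12 (0.935). Ackr2 encodes an atypical receptor that takes up CC chemokines without signalling. Its log2 fold change was -0.01, and it was at the floor in 3 of the 8 cultures. For Ccl4 they were mrpl24 (0.984), Psmb5, Eif4ebp1, Ptp4a1 and Kcnh2 (0.970), and for Ccl20 Muc13 (0.938), Hax1, Adcy5, Cyp2c13 and Neurl3 (0.864). For Cxcr4, by its brightest probe set U90610_at, they were Scaf4 (0.939), Sik2, Igf1, Pik3ip1 and Il1rap (0.911). The other Cxcr4 probe sets did not follow U90610_at (r = -0.14 and 0.04), so these genes belong to that probe set alone. The cultures of a pair of genes share their arrays and scaling, and with array medians subtracted 2 of the 5 genes were again found for Ccl2 and 1 of 5 for Ccl3. Ccl3 and Ccl4 were both lowest in control 3, and the part of that culture in their nearest patterns was not tested.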

How the data were processed

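Total RNA was hybridised to 1-colour Affymetrix rat arrays (10 arrays, 8 cultures). The deposited table holds 1 linear signal intensity per probe set and array; per the submitters' processing notes MAS5 and GCRMA were used, with no version or role, and the authors' scaling steps were not given in the sources used here. No pair of arrays shared its signal at more than 81 probe sets. From the intensities log2(signal + 16) was computed over 8799 probe sets and quantile normalised, 59 array controls were dropped, and the technical arrays were averaged. Groups were compared on group alone by lmFit and eBayes (limma 3.58.1, R 4.3.3). The number of arrays limits precision. Genes named are the members, the 5 nearest patterns per member not at the floor, and from each of 5 lists those past the threshold and up to 3 others with the largest change. Ccr2 and single markers were added as examples. Members, lists and rules were chosen with earlier results of these data known, the decrease in Ccl2 included. Alternatives concerned scaling, pseudocount, filters, technical arrays, variance model, block and omitted cultures. The array's build is not given, so no coordinates are printed.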

Additional observations from a re-analysis of the deposited data

Results flagged for a closer look

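In the controls, Cxcr4 by probe set rc_AA945737_at had 1 culture apart from the rest. Control 6 was at 4.27, under the floor, and the next lowest control was at 5.05. The gap was 0.727 of the whole range of the 5 controls, above Dixon's 95% critical value of 0.71. Of 26 probe sets looked at in this way 1 stood out, and chance gives about 1 in 20. On the other Cxcr4 probe sets control 6 was at 6.54 and 5.65, within the range of the controls.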

How the results depend on the processing

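The count of 2 member probe sets past the threshold became 0 with no scaling, array medians, a pseudocount of 4, array 1b alone, the culture number as a block, or without probe sets of reduced specificity (which removed both Ccl2 probe sets). It became 1 with a trimmed mean, a pseudocount of 64, array 1a or array 1c alone, and 0 to 1 with a culture left out. Where the call of Ccl2 was lost, the log2 fold change of the mRNA probe set was -1.13 (no scaling), -1.25 (medians), -1.49 (trimmed mean), -1.64 (pseudocount 4), -1.10 (pseudocount 64), -1.45 (1b) and -1.35 (1c). That of the coding sequence probe set was -1.23 (no scaling), -1.35 (medians), -1.80 (pseudocount 4), -1.39 (1a) and -1.42 (1b). With a culture left out, call kept or lost, they ran from -1.67 to -1.32 and from -1.76 to -1.24. The cause was not tested.

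Culture numbers 1, 2 and 3 occur in both groups. Same-numbered cultures did not deviate together from their group means (r = -0.03, 0.00 and -0.01). With so few cultures, on arrays of uneven brightness, this cannot settle whether they were paired. With the number as a replicate block Ccl2 was at -1.51 and -1.57 (adjusted p = 0.347 and 0.1), Cxcl10 at 1.96 (0.12), Cxcl13 at -1.95 (0.072) and Rgs1 at -1.27 (0.196). These were about as large as without the block but not past the threshold. Over all probe sets 17 were higher and 5 lower, against 81 and 53. Controls 5 and 6 share their number with no IFN-gamma culture, so they do not inform the difference in this fit and fewer cultures carry it.

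Among the genes named, signs turned only where a change was small. Ccl3 was at 0.36 (no scaling), 0.24 (medians), 0.0019 (trimmed mean), 0.0028 (pseudocount 4), 0.033 (1a), 0.082 (1b), 0.043 (block) and -0.33 to 0.15 with a culture left out. Ccl5 was at -0.070 (medians), -0.025 (trimmed mean) and -0.0065 to 0.062 with a culture left out, Ccl20 at -0.0045 (trimmed mean), Cxcr4 by U90610_g_at at 0.041 (1a), and with no scaling Cx3cl1 was at 0.11 and Ccr1 at 5.19e-06. Over all probe sets 100 were higher and 27 lower with medians, 85 and 40 with a trimmed mean, and 38 and 1 with no scaling, where the median of all probe sets moved from -0.02 to 0.10. With 1 culture left out 47 to 106 were higher and 21 to 50 lower. Signals under 16, as for Ccl5, limit what can be seen.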
